A study of Homo sapiens with 24 samples.

Results

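A set of 31 reported p53 target genes was followed in MCF10A, an immortal but non-tumorigenic line of human mammary epithelium. A gene was measured where at least 1 probe set carried its symbol and no other, and where several did, the one brightest on average across the 24 arrays was used. By that rule 29 of the 31 genes were measured, each by 1 probe set, among 18417 genes and 19460 probe sets with exactly 1 symbol. BTG2 and FDXR were the others.

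RNA was profiled on Affymetrix Human Gene ST arrays from 3 transfections at 4 times. The cells had received an oligonucleotide against miR-20a (si-miR-20a), another against miR-671-5p (si-miR-671), or a non-targeting one (control), in every case with the reagent Oligofectamine. RNA was taken at 0, 30, 60 and 120 min of epidermal growth factor (EGF), a ligand of the EGF receptor. Each of the 12 groups had 2 arrays. The labels call these biological replicates, and no source used here says whether each pair was transfected separately. A p-value below sets a difference against the spread between the 2 arrays of a group, pooled over the 12 groups. Whether that spread includes differences between separate transfections is not known. The growth medium also held EGF, and whether it was withdrawn before 0 min was not given. No array came from cells kept without EGF for 30, 60 or 120 min, so EGF and time since the start of stimulation cannot be told apart. MCF10A is 1 line, and the level of either microRNA after transfection was not measured by the files used here.

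p53 is a transcription factor that DNA damage and other stress stabilise, and it switches on genes for cell-cycle arrest, DNA repair, cell death and its own destruction. MDM2, the ubiquitin ligase that marks p53 for degradation, is itself a p53 target and closes a negative feedback loop. Many of these genes also have other activators: growth factors acting through the MAP kinase cascade induce GADD45B, PLK2 and PLK3 as early response genes. miR-20a belongs to the miR-17 family, whose members are encoded in clusters that the MYC and E2F factors switch on.

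The mature microRNAs named in the labels are shown because their seeds, bases 2 to 8 in capitals, decide which messenger RNAs each can pair with. The sequences are those of RefSeq on GRCh38.p14, 23 bases each, and the seeds differ. The 5p arm is shown for miR-20a, whose label names no arm.
hsa-miR-20a-5p, chr13:91351072-91351094, plus strand: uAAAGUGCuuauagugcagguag
hsa-miR-671-5p, chr7:151238449-151238471, plus strand: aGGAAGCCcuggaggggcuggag

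Promoter windows from 250 bases before to 50 bases after a start site were looked up in RefSeq on GRCh38.p14, because the genes were grouped by a shared activator. At least 1 window was found for 23 of the 29 measured genes, and these had 35 windows, some of them overlapping. The p53 decamer, the unit that p53 response elements hold in pairs, matched in 5 windows (14.3% of 35), those of PLK2, FAS, AEN, DDB2 and SESN1, against 6.63% of 35116 windows of all genes. The AP-1 site, TGACTCA or TGAGTCA, was in 5 windows (14.3%) against 4.95% of all windows, but these were 3 sites, of MDM2, EDA2R and BBC3, since overlapping windows of MDM2 and of EDA2R held the same site. The cyclic AMP element core TGACG, read on both strands, was in 10 (28.6%) against 24.6%. The CArG box, which serum response factor binds at early response genes, was in 0 of 35 against 1.29%. Matches of different motifs overlapped in 0 of these windows, and in the PPM1D window the TGACG core matched on both strands over shared bases. Only exact matches were counted, the decamer as RRRCWWGYYY (R is A or G, W is A or T, Y is C or T). An element that departs from its motif was not counted, so a window without a match is not shown to lack one. A match is a string of letters, not a site shown to be bound. Of the genes with a decamer, 3 windows are printed, with the decamer in capitals: PLK2 was higher at 30 min of EGF, and SESN1 and DDB2 were lower at 120 min.
PLK2, chr5:58460037-58460336, minus strand, decamer from base -132: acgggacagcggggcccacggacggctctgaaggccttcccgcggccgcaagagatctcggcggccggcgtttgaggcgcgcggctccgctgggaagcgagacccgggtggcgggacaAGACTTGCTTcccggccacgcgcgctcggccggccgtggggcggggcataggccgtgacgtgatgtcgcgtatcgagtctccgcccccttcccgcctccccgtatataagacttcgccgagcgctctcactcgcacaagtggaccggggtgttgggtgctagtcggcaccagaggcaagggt
SESN1, chr6:109008939-109009238, minus strand, decamer from base -49: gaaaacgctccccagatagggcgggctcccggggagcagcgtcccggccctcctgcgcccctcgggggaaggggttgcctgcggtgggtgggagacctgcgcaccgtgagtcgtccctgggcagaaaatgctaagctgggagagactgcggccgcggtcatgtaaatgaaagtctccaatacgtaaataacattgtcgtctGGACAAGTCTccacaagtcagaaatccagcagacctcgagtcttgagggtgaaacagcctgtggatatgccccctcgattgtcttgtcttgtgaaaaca
DDB2, chr11:47214724-47215023, plus strand, decamers from bases 6 and 17: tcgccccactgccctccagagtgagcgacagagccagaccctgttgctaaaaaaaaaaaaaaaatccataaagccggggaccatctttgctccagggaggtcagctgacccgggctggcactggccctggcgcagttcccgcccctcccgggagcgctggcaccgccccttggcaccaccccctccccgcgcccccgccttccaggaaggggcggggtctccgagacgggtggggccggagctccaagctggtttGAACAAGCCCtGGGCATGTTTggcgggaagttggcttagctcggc
The DDB2 window held 2 decamers with 1 base between them, and the other windows named held 1 each.

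All values are the log2 levels that the authors deposited, 1 per probe set. Array medians ran from 6.56 to 6.57, and the 2 arrays of a group correlated at 0.973 to 0.992 over probe sets. Of the basal epithelial markers, KRT5 lay between 12.5 and 12.7 and KRT14 between 11.7 and 12.1 on all 24 arrays, and the epithelial cadherin gene CDH1 between 9.18 and 9.91. PTPRC of blood cells (3.74 to 4.95) and LUM of fibroblasts (2.0 to 4.53) were low, but not every marker of other cell types was: CD14 lay between 7.48 and 8.40, COL1A1 between 7.31 and 8.01, VIM between 11.1 and 11.7 and CDH5, a cadherin gene best known from endothelium, between 10.0 and 11.2. The early response gene FOS was higher at 30 min than at 0 min by 3.98 ± 0.085 (log2 difference ± SE). Log2 differences below are averages over transfections or over times from 1 limma fit across the 19460 probe sets, with Benjamini-Hochberg adjusted p-values over all of them, and a gene is called where the adjusted p is under 0.05.

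The 29 genes spanned a wide range of levels. CCNG1 (mean 10.4 over 24 arrays), PLK2 (10.4), TRIAP1 (10.3), MDM2 (10.2) and GADD45A (10.2) had the brightest probe sets, at or above the 94th percentile of all probe sets. EDA2R (6.56), AEN (6.85), BBC3 (6.91) and GADD45B (7.26) had the dimmest, with EDA2R at the 50.1th percentile. Brightness depends on the probes, so these means do not rank the genes by abundance.

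**Figure D1:**
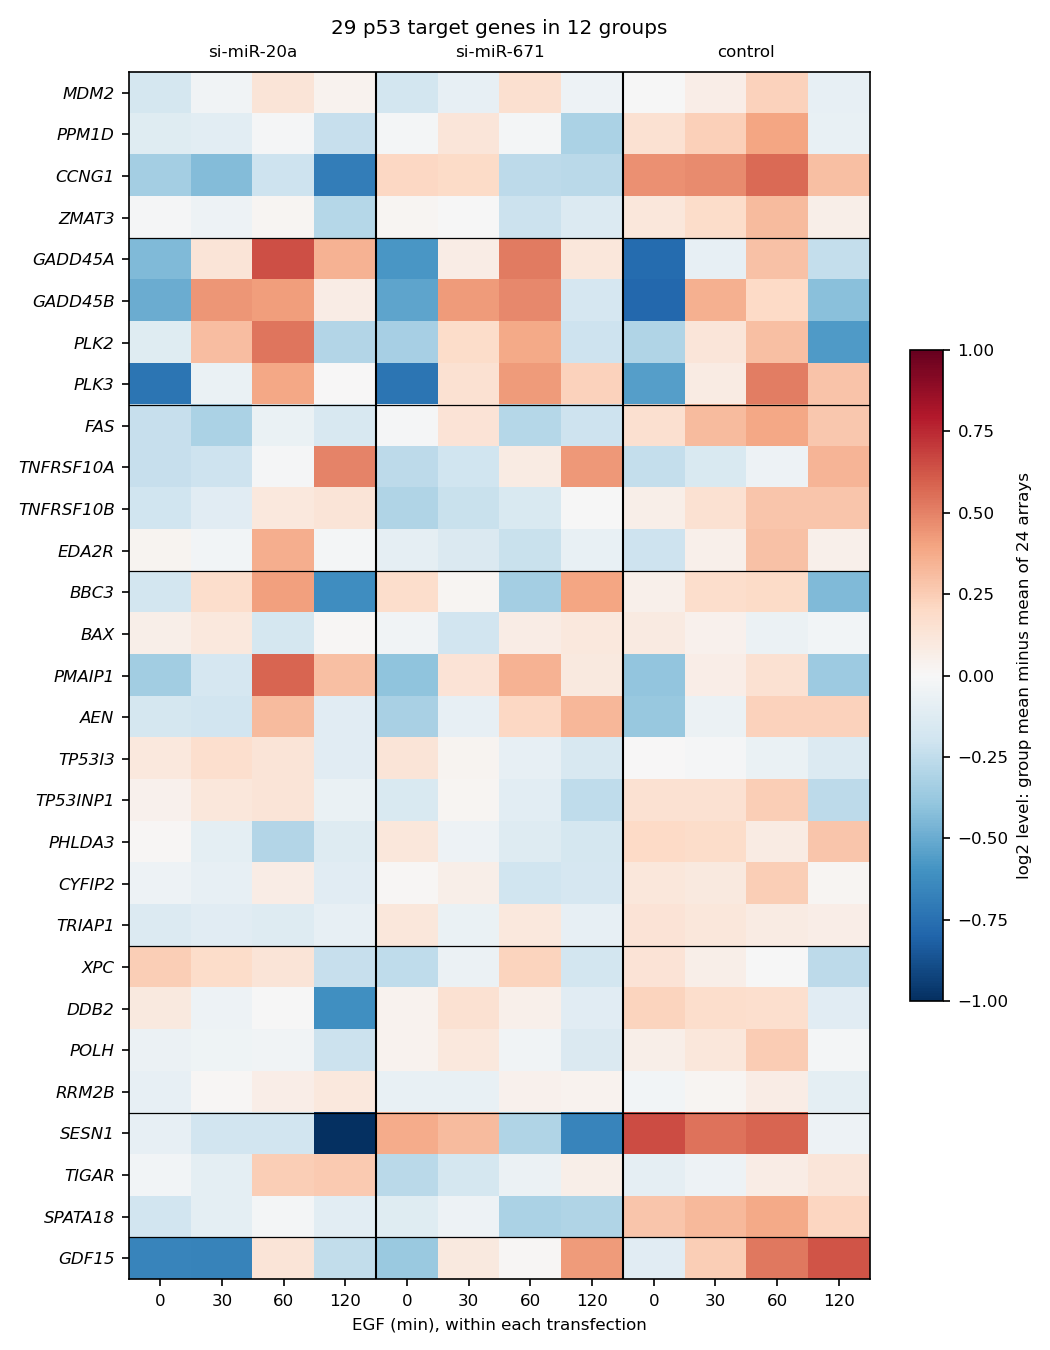
Log2 level of each of the 29 measured p53 target genes (rows, grouped by role) in the 12 groups (columns, EGF time within each transfection), as the mean of 2 arrays minus the gene's mean over 24 arrays. GADD45A, GADD45B, PLK2 and PLK3 are low at 0 min and high at 60 min in all 3 transfections, and CCNG1, SPATA18 and FAS are highest in control.

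Under EGF, genes of growth arrest and stress kinases moved first. The samples are bulk RNA, in which a change in every cell and a change in the number of cells expressing a gene cannot be told apart. At 30 min 5 of 29 genes were higher and 0 lower, against 0.725% higher and 0.0411% lower among all probe sets. At an unadjusted p under 0.05, 7 genes passed. The median difference was 0.053 over the 29 genes and -0.008 over all probe sets. All 4 measured genes of growth arrest and stress kinases were among those called, and the remaining one was PMAIP1. At 60 min 10 genes were higher and 0 lower, against 2.16% and 0.493% of all probe sets, and at 120 min 9 were higher and 5 lower, against 7.13% and 6.27%. Within single transfections at 60 min, 6 genes were higher and 0 lower in si-miR-20a (0.889% and 0.0822% of all probe sets), 8 were higher and 2 lower in si-miR-671 (1.28% and 0.771%), and 4 were higher and 0 lower in control (0.755% and 0.036%). The 2 lower ones in si-miR-671 were CCNG1 and SESN1, and XPC was among the higher. The median differences of the averages at 60 and 120 min were 0.080 and -0.055 over the 29 genes, and 0.002 and 0.008 over all probe sets.

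GADD45A and GADD45B encode small stress proteins that bind cyclin B kinase and the upstream MAP kinase kinases, and both were higher by 30 min. GADD45A ranged over 10.13 to 10.35 at 30 min (median 10.29) and 10.51 to 10.88 at 60 min (median 10.74), against 9.41 to 9.79 at 0 min (median 9.64; 6 arrays a time). Every array of 30, 60 and 120 min lay above every array of 0 min. The GADD45A differences from 0 min were 0.64 ± 0.06 at 30 min, 1.08 ± 0.06 at 60 min and 0.67 ± 0.06 at 120 min (2.12-fold at 60 min, adjusted p = 1.1e-08). GADD45B reached 7.52 to 7.79 at 30 min (median 7.69), against 6.24 to 6.89 at 0 min (median 6.69). Its arrays of 30 and 60 min stood above all of 0 min, and those of 120 min (6.81 to 7.50) overlapped them. The GADD45B difference was 1.01 ± 0.085 at 30 min (2.02-fold, adjusted p = 3.1e-06), 0.97 ± 0.085 at 60 min and 0.44 ± 0.085 at 120 min (adjusted p = 0.0028).

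PLK2 and PLK3 encode polo-like kinases that act in stress responses and, in neurons, at synapses. PLK3 stood at 9.05 to 9.35 at 30 min (median 9.25), 9.48 to 9.72 at 60 min (median 9.61) and 9.12 to 9.61 at 120 min (median 9.28), against 8.40 to 8.63 at 0 min (median 8.45). None of the later arrays overlapped those of 0 min. The PLK3 differences were 0.72 ± 0.061, 1.11 ± 0.061 and 0.84 ± 0.061 at 30, 60 and 120 min, and the 60 min value was a 2.16-fold difference (adjusted p = 8.4e-09). PLK2 stood at 10.48 to 10.70 at 30 min and 10.64 to 10.93 at 60 min, against 10.03 to 10.30 at 0 min, without overlap. At 120 min PLK2 stood at 9.77 to 10.24, overlapping the 0 min arrays, with the control arrays (9.82 and 9.77) below all of them. Its differences were 0.45 ± 0.043 (adjusted p = 1.4e-05), 0.66 ± 0.043 (adjusted p = 7.7e-08) and -0.11 ± 0.043, the last with an adjusted p of 0.12. GADD45A, GADD45B, PLK2 and PLK3 were called at 30 and at 60 min within each of the 3 transfections as well.

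**Figure D2:**
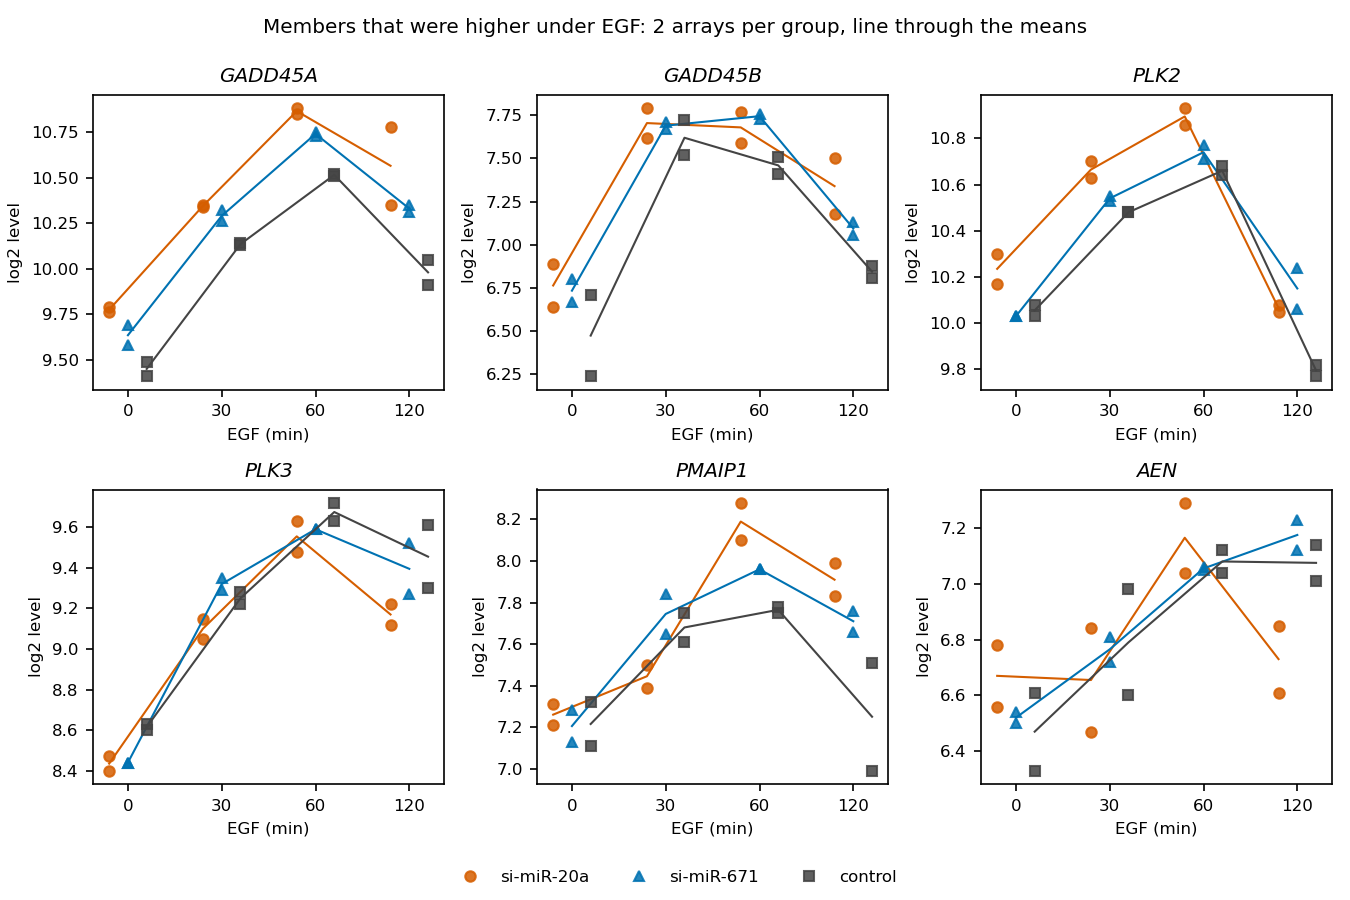
Log2 level of 6 p53 target genes against EGF time, with a point per array and a line through the mean of the 2 arrays of each group, from si-miR-20a, si-miR-671 and control cells. GADD45B is already near its top at 30 min, GADD45A, PLK2, PLK3 and PMAIP1 are highest at 60 min, and PLK2 at 120 min stands at 9.77 to 10.24, against 10.03 to 10.30 at 0 min.

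Of the 9 genes of intrinsic apoptosis and death effectors, 2 were higher at 60 min, against 2.16% of all probe sets. PMAIP1 encodes NOXA, a BH3-only protein that neutralises MCL1. It stood at 7.39 to 7.84 at 30 min and 7.75 to 8.28 at 60 min, against 7.11 to 7.32 at 0 min, without overlap. The PMAIP1 differences were 0.39 ± 0.081 at 30 min (adjusted p = 0.032), 0.75 ± 0.081 at 60 min (adjusted p = 3e-05) and 0.40 ± 0.081 at 120 min (adjusted p = 0.0038). The 30 min call was lost in 14 of the 24 fits that left out 1 array and in the average without si-miR-671 arrays. AEN, an apoptosis-enhancing nuclease, was higher by 0.54 ± 0.087 at 60 min (adjusted p = 0.0016) and 0.44 ± 0.087 at 120 min (adjusted p = 0.0032), though the 120 min call was lost in the average without si-miR-671 arrays. At 120 min AEN stood at 7.12 and 7.23 in si-miR-671 and at 6.85 and 6.61 in si-miR-20a, against 7.01 and 7.14 in control, so the si-miR-20a arrays were the lowest.

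BBC3, which encodes the BH3-only protein PUMA, and BAX, the pore former of the outer mitochondrial membrane, were not called at any time. The BBC3 differences were 0.11, 0.07 and -0.23 (± 0.153) and those of BAX -0.05, -0.09 and -0.01 (± 0.110) at 30, 60 and 120 min. BBC3 had the widest error of the 29 genes. TP53I3, a quinone reductase of oxidative stress, was lower at 120 min by -0.22 ± 0.044 (adjusted p = 0.0037), with 8.75 to 8.84 at 120 min against 8.91 to 9.12 at 0 min and no overlap. That call was lost when only the 0 and 120 min arrays entered the fit. TP53INP1 (an autophagy and cell-death protein), PHLDA3 (a repressor of AKT), CYFIP2 (a subunit of the actin-regulating WAVE complex) and TRIAP1 (a lipid-transfer partner in mitochondria) were not called, at -0.22 to 0.09 over the 3 times.

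Of the 4 death receptors, 0 were called at 30 min and 2 were higher at 60 and at 120 min. Among all probe sets 0.725% were higher and 0.0411% lower at 30 min, and 2.16% and 7.13% were higher at 60 and 120 min. TNFRSF10A and TNFRSF10B encode the receptors of the death ligand TRAIL. TNFRSF10A stood at 9.07 to 9.28 at 60 min and 9.45 to 9.68 at 120 min, against 8.83 to 8.95 at 0 min. Arrays of 60 and 120 min did not overlap those of 0 min, and those of 30 min (8.85 to 9.01) did. The TNFRSF10A difference was 0.05 ± 0.047 at 30 min, 0.25 ± 0.047 at 60 min (adjusted p = 0.0066) and 0.66 ± 0.047 at 120 min (1.58-fold, adjusted p = 1.2e-07). TNFRSF10A was called at 120 min in each transfection, by 0.72 in si-miR-20a, 0.69 in si-miR-671 and 0.57 in control. TNFRSF10B was higher by 0.22 ± 0.049 at 60 min and 0.28 ± 0.049 at 120 min (adjusted p = 0.019 and 0.001), and its arrays overlapped those of 0 min. The 60 min calls were less firm: that of TNFRSF10A was lost in the average without si-miR-671 arrays, and that of TNFRSF10B in 8 of 24 fits without 1 array. FAS, the receptor of the Fas ligand, differed by 0.07, 0.04 and -0.01 (± 0.067) and EDA2R, the receptor of ectodysplasin A2, by 0.05, 0.24 and 0.08 (± 0.075), none of them called.

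GDF15 encodes a secreted stress cytokine of the TGF-beta family. It stood at 8.39 to 8.98 at 60 min (median 8.60) and 8.0 to 9.10 at 120 min (median 8.88), against 7.62 to 8.37 at 0 min (median 8.07). The 60 min arrays lay above all 0 min arrays, and at 120 min the si-miR-20a arrays (8.40 and 8.0) were the lowest. GDF15 was higher by 0.60 ± 0.089 at 60 min (adjusted p = 0.0007) and 0.65 ± 0.089 at 120 min (adjusted p = 0.00012).

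Of the 4 genes of negative feedback, MDM2 was the one higher at 60 min, against 2.16% of all probe sets. MDM2 stood at 10.34 to 10.51 at 60 min, against 9.99 to 10.24 at 0 min, without overlap, a difference of 0.29 ± 0.046 (adjusted p = 0.0013). At 30 and 120 min its differences were 0.10 and 0.09 and not called. CCNG1 encodes cyclin G1, which brings phosphatase 2A to MDM2. CCNG1 was lower at 120 min by -0.33 ± 0.058 (adjusted p = 0.0013), while at 30 and 60 min it differed by -0.03 and -0.08. Within transfections CCNG1 at 60 min differed from 0 min by 0.13 in si-miR-20a and by -0.46 ± 0.100 in si-miR-671 (adjusted p = 0.025, called), against 0.11 in control. PPM1D, the phosphatase WIP1 that reverses stress-kinase marks, and ZMAT3, an RNA-binding zinc-finger protein, were not called, with -0.21 and -0.16 at 120 min.

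Lower levels at 120 min included DNA repair and redox genes. SESN1, a stress-induced inhibitor of mTORC1 signalling, stood at 7.04 to 8.13 at 120 min (median 7.44), against 7.88 to 8.80 at 0 min (median 8.47), and the ranges overlapped. Within each transfection both SESN1 arrays of 120 min lay below both of 0 min, by -0.91 in si-miR-20a, -1.03 in si-miR-671 and -0.70 in control, and each was called. The SESN1 average at 120 min was -0.88 ± 0.074 (0.542-fold, adjusted p = 7.6e-07). At 60 min the SESN1 average was -0.28 ± 0.074, which was not called (adjusted p = 0.06). Within transfections SESN1 at 60 min differed by -0.11 in si-miR-20a and by -0.67 ± 0.127 in si-miR-671 (adjusted p = 0.01, called), against -0.07 in control.

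XPC and DDB2 encode the damage sensors of nucleotide excision repair. DDB2 was lower at 120 min by -0.40 ± 0.061 (adjusted p = 0.00038) and XPC by -0.27 ± 0.052 (adjusted p = 0.0023). DDB2 at 120 min stood at 7.77 and 7.55 in si-miR-20a and at 8.04 and 8.27 in si-miR-671, against 8.21 and 8.10 in control. The si-miR-20a pair was the lowest of the 24 arrays. The XPC values differed in sign between transfections: at 120 min it differed from 0 min by -0.47 in si-miR-20a and by 0.07 in si-miR-671, against -0.40 in control. POLH, the polymerase that copies past ultraviolet lesions, and RRM2B, the p53-inducible ribonucleotide reductase subunit, were not called (-0.14 and 0.08 at 120 min). At 60 min RRM2B arrays (10.02 to 10.08) lay above all 0 min arrays (9.85 to 10.00), by 0.12 ± 0.051 (adjusted p = 0.33). TIGAR, a fructose bisphosphatase that slows glycolysis, was higher at 120 min by 0.27 ± 0.059 (adjusted p = 0.0058), a call lost when the 0 and 120 min arrays alone were fitted. SPATA18, a regulator of mitochondrial quality, was not called (-0.06 at 120 min).

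The question of the transfections was how these genes stood when either microRNA was targeted. Averaged over times, 5 genes were higher and 13 lower in si-miR-20a than in control, against 11.9% higher and 12.7% lower among all probe sets. In si-miR-671, 2 were higher and 10 lower, against 6.79% and 7.70%. The median differences over the 29 genes were -0.066 for si-miR-20a and -0.092 for si-miR-671, and 0.011 and 0.000 over all probe sets. Both comparisons use the same 8 control arrays, so their values are given side by side and carry no independent weight.

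**Figure D3:**
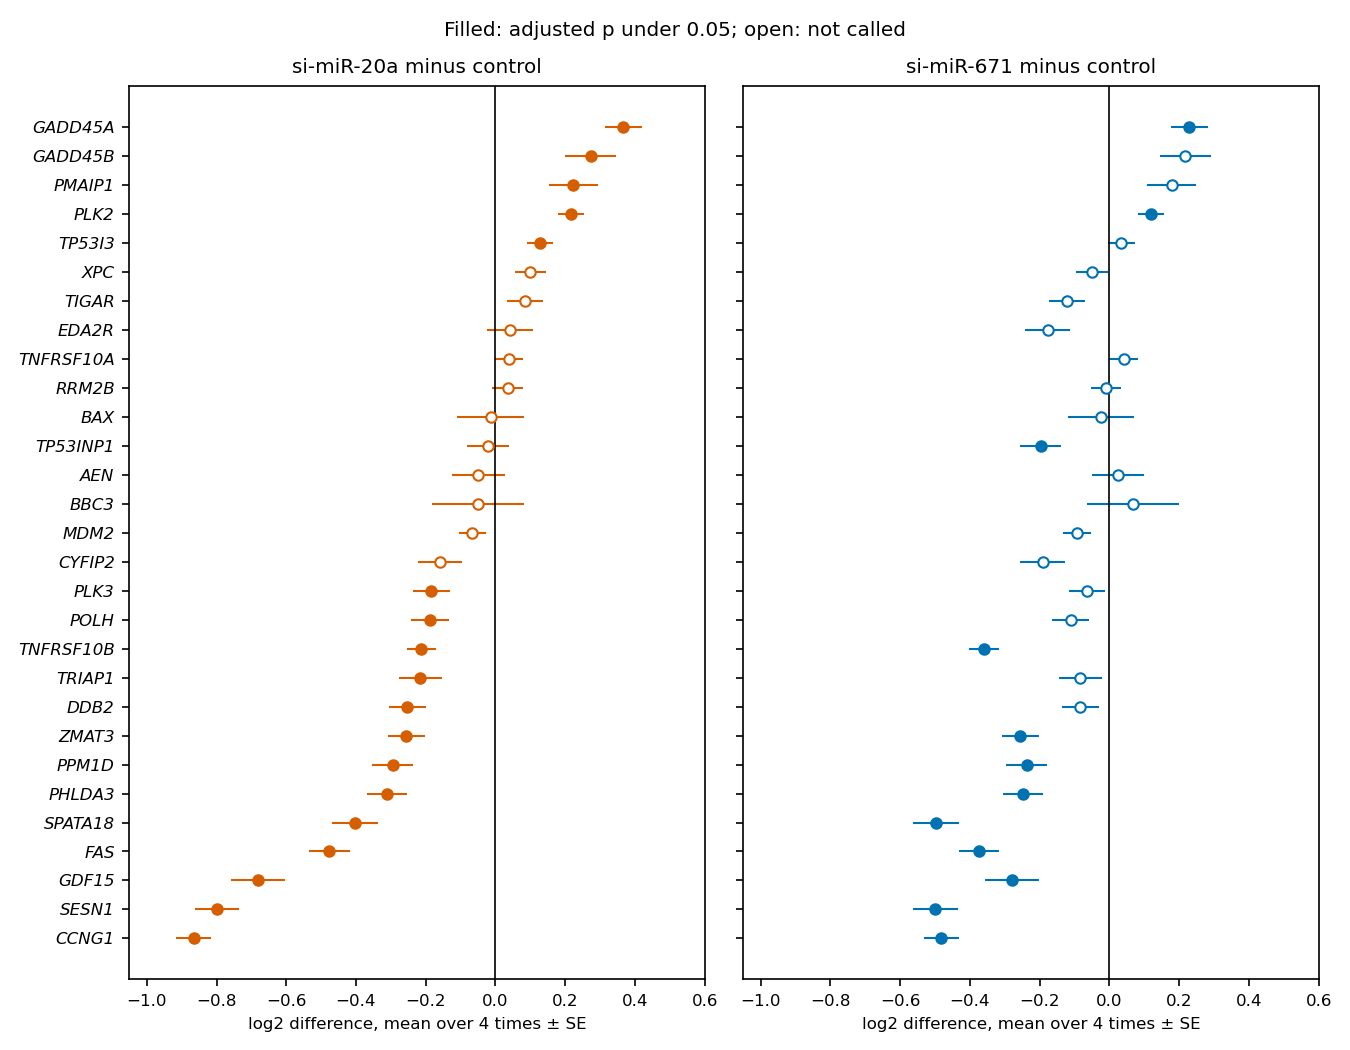
Log2 difference of each p53 target gene from control, averaged over 4 EGF times (± SE, 8 against 8 arrays), in si-miR-20a (left) and si-miR-671 (right), with filled points for an adjusted p under 0.05. CCNG1, at -0.87, and SESN1, at -0.80, are the lowest in si-miR-20a, and GADD45A, at 0.37 and 0.23, is the highest in both panels.

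Among the feedback genes CCNG1 differed most. CCNG1 stood at 9.65 to 10.29 in si-miR-20a (median 10.02) and 10.09 to 10.67 in si-miR-671 (median 10.38), against 10.69 to 10.99 in control (median 10.87; 8 arrays each). No si-miR-20a or si-miR-671 array reached the lowest control array. CCNG1 differed from control by -0.87 ± 0.05 in si-miR-20a (0.549-fold, adjusted p = 2.4e-08) and by -0.48 ± 0.05 in si-miR-671 (0.716-fold, adjusted p = 1.1e-05). PPM1D was lower by -0.30 ± 0.059 in si-miR-20a (adjusted p = 0.0018) and -0.24 ± 0.059 in si-miR-671 (adjusted p = 0.013). ZMAT3 was lower by -0.26 ± 0.053 in both (adjusted p = 0.0022 and 0.0037). Both ZMAT3 calls were lost over 0 and 30 min alone. MDM2, at -0.07 and -0.09 (± 0.039), was not called.

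SESN1 and SPATA18, of metabolism and mitochondria, were lower with either microRNA targeted. SESN1 stood at 7.04 to 8.14 in si-miR-20a (median 7.89) and 7.28 to 8.55 in si-miR-671 (median 8.08), against 7.96 to 8.80 in control (median 8.68). Both ranges overlapped that of control only through the 120 min control arrays. SESN1 differed by -0.80 ± 0.064 in si-miR-20a (adjusted p = 4.6e-07) and -0.50 ± 0.064 in si-miR-671 (adjusted p = 7.4e-05). SPATA18 stood at 7.36 to 7.80 in si-miR-20a and 7.26 to 7.66 in si-miR-671, against 7.86 to 8.11 in control, without overlap. The SPATA18 differences were -0.40 ± 0.066 (adjusted p = 0.00038) and -0.50 ± 0.066 (adjusted p = 0.00011). TIGAR, at 0.08 and -0.12, was not called in either.

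Of the death receptors, FAS and TNFRSF10B were lower. FAS stood at 8.54 to 8.95 in si-miR-20a and 8.56 to 9.03 in si-miR-671, against 9.04 to 9.32 in control, without overlap. FAS differed by -0.48 ± 0.058 in si-miR-20a (adjusted p = 2.7e-05) and -0.38 ± 0.058 in si-miR-671 (adjusted p = 0.00038). TNFRSF10B stood at 9.83 to 10.35 in si-miR-20a and 9.80 to 10.18 in si-miR-671, against 10.18 to 10.43 in control. The si-miR-671 arrays did not overlap control, and the si-miR-20a arrays did. TNFRSF10B differed by -0.21 ± 0.042 in si-miR-20a (adjusted p = 0.0016) and -0.36 ± 0.042 in si-miR-671 (adjusted p = 3.3e-05). Its si-miR-20a call was lost over 60 and 120 min alone. TNFRSF10A differed by 0.04 in both and EDA2R by 0.04 and -0.18, and none of these averages was called. EDA2R in si-miR-671 differed by -0.03 over 0 and 30 min and by -0.32 ± 0.092 over 60 and 120 min (adjusted p = 0.028, called), and the difference between these spans was not called (adjusted p = 0.33).

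GDF15 stood at 7.62 to 8.67 in si-miR-20a (median 7.98) and 8.07 to 9.02 in si-miR-671 (median 8.48), against 8.29 to 9.10 in control (median 8.91). The ranges overlapped across times, and at each time both si-miR-20a arrays lay below both control arrays. GDF15 was lower by -0.68 ± 0.077 in si-miR-20a (adjusted p = 1.4e-05) and by -0.28 ± 0.077 in si-miR-671 (adjusted p = 0.024), and the si-miR-671 call was lost in 6 of 24 fits without 1 array.

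**Figure D4:**
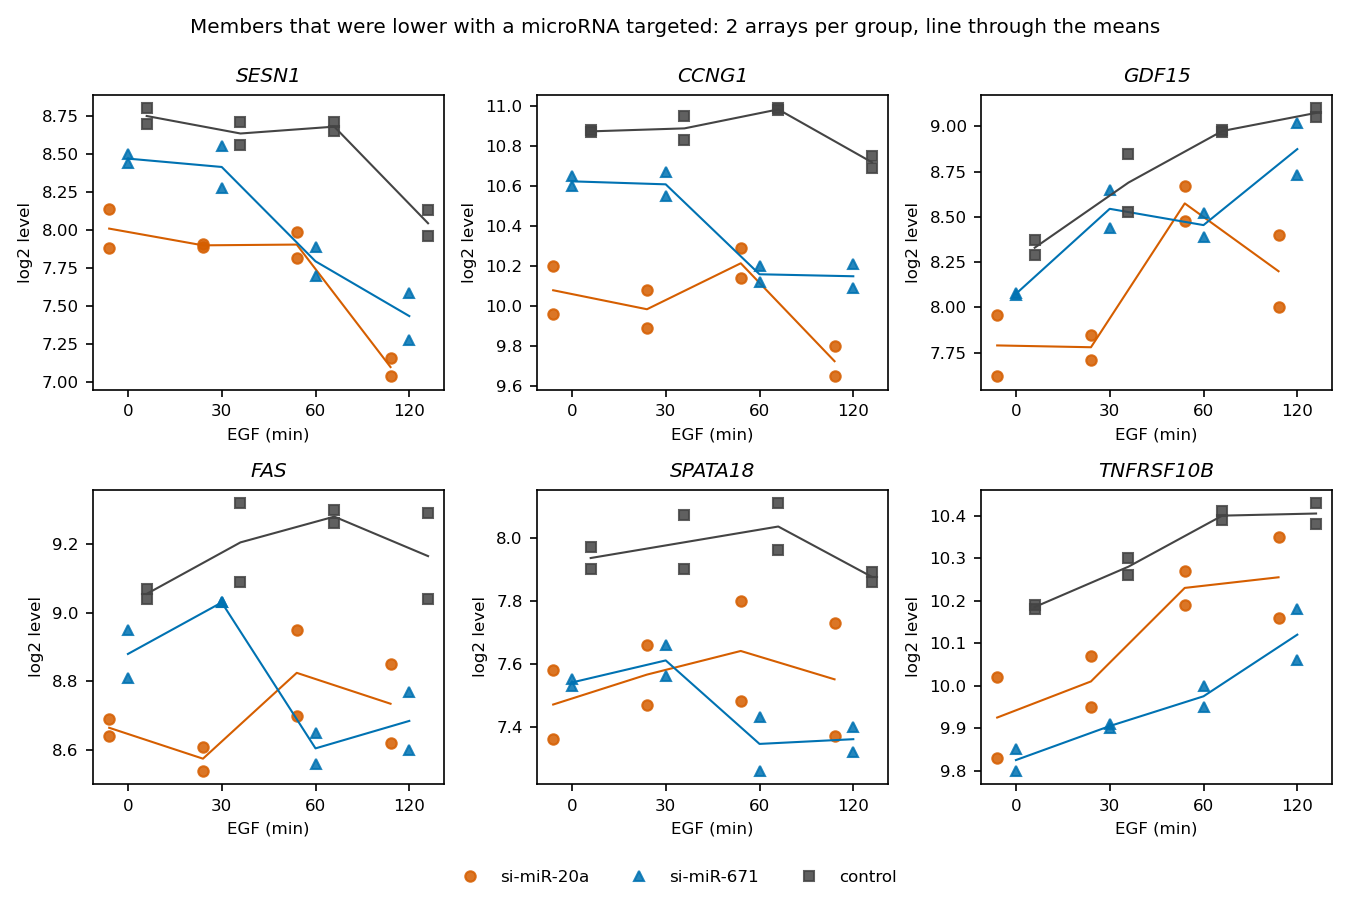
Log2 level of 6 p53 target genes against EGF time, with a point per array and a line through the mean of the 2 arrays of each group, from si-miR-20a, si-miR-671 and control cells. The si-miR-20a and si-miR-671 arrays of CCNG1, FAS and SPATA18 lie below all control arrays of the same gene, and si-miR-671 SESN1, CCNG1 and FAS stand lower at 60 min than at 30 min.

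Among growth-arrest genes, GADD45A was higher in si-miR-20a by 0.37 ± 0.052 (adjusted p = 0.00011) and in si-miR-671 by 0.23 ± 0.052 (adjusted p = 0.0075). At each time, both GADD45A arrays of either transfection lay above both control arrays. At 0 min, for example, they were 9.79 and 9.76 in si-miR-20a and 9.69 and 9.58 in si-miR-671, against 9.41 and 9.49 in control. GADD45B differed by 0.27 ± 0.074 in si-miR-20a (adjusted p = 0.013) and 0.22 ± 0.074 in si-miR-671 (adjusted p = 0.064, not called). Its si-miR-20a call was lost over 0 and 30 min alone. PLK2 was higher by 0.22 ± 0.037 in si-miR-20a (adjusted p = 0.00054) and 0.12 ± 0.037 in si-miR-671 (adjusted p = 0.046). That si-miR-671 call was lost in 19 of 24 fits without 1 array. PLK3 was lower in si-miR-20a by -0.18 ± 0.052 (adjusted p = 0.018) and differed by -0.06 ± 0.052 in si-miR-671. The si-miR-20a call was lost both over 0 and 30 min alone (-0.17 ± 0.074) and over 60 and 120 min alone (-0.20 ± 0.074).

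In the apoptosis group, PHLDA3 was lower by -0.31 ± 0.057 in si-miR-20a (adjusted p = 0.00092) and -0.25 ± 0.057 in si-miR-671 (adjusted p = 0.0081). Both PHLDA3 calls were lost over 0 and 30 min alone. TRIAP1 was lower in si-miR-20a by -0.22 ± 0.062 (adjusted p = 0.018), a call lost in 1 of 24 fits without 1 array, and differed by -0.08 in si-miR-671. TP53INP1 was lower in si-miR-671 by -0.20 ± 0.060 (adjusted p = 0.037), a call lost in 12 of 24 such fits, and differed by -0.02 in si-miR-20a. TP53I3 was higher in si-miR-20a by 0.13 ± 0.038 (adjusted p = 0.023, lost in 5 of 24) and differed by 0.03 in si-miR-671. The TRIAP1, TP53INP1 and TP53I3 calls were also lost over 0 and 30 min alone and over 60 and 120 min alone. That of TP53INP1 was lost too when all 33297 probe sets were fitted, and that of TP53I3 with the compared arrays alone. PMAIP1 was higher in si-miR-20a by 0.22 ± 0.070 (adjusted p = 0.03, lost in 9 of 24) and differed by 0.18 in si-miR-671. The PMAIP1 average joined differences of -0.10 over 0 and 30 min and 0.54 ± 0.099 over 60 and 120 min. The change between these spans was not called for PMAIP1 (limma, smallest adjusted p over the 29 genes 0.26). Its call as an average was also lost with the compared arrays alone. AEN, BAX, BBC3 and CYFIP2 differed by -0.16 to -0.01 in si-miR-20a and -0.19 to 0.07 in si-miR-671, none called as averages. CYFIP2 in si-miR-671 was lower over 60 and 120 min by -0.32 ± 0.091 (adjusted p = 0.028) and differed by -0.07 over 0 and 30 min, and the difference between these spans was not called (adjusted p = 0.39).

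Of the repair genes, DDB2 was lower in si-miR-20a by -0.25 ± 0.053 (adjusted p = 0.0024) and POLH by -0.19 ± 0.054 (adjusted p = 0.018, lost in 1 of 24 fits without 1 array). Both calls were lost over 0 and 30 min alone. In si-miR-671 the same genes differed by -0.08 and -0.11 and were not called. XPC and RRM2B were not called in either transfection.

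More genes were called between si-miR-671 and control at the later times. Over 0 and 30 min, 3 genes were lower (XPC, SPATA18 and TNFRSF10B) and 0 higher, against 1.44% and 1.36% of all probe sets. Over 60 and 120 min, 11 were lower and 3 higher, against 8.37% and 7.04%. EDA2R and CYFIP2 were among those 11. CCNG1 differed by -0.27 ± 0.071 over the earlier times and -0.70 ± 0.071 over the later ones, SESN1 by -0.25 ± 0.090 and -0.75 ± 0.090, and FAS by -0.17 ± 0.082 and -0.58 ± 0.082. The change between the earlier and later times was itself called for 0 of 29 genes (adjusted p of 0.06 or more, 7 genes at an unadjusted p under 0.05), against 0.519% of all probe sets. For si-miR-20a, 7 genes were lower and 2 higher over 0 and 30 min, against 7.17% and 4.79%, and 10 lower and 4 higher over 60 and 120 min, against 7.75% and 8.95%. CCNG1 stood at -0.85 and -0.88 and SESN1 at -0.74 and -0.86 over the earlier and later times of si-miR-20a. The change between them was called for 0 of 29 genes, against 0.00514% of all probe sets.

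XPC had the smallest adjusted p, 0.06, for that change in si-miR-671. It stood at 8.23 and 8.19 in si-miR-671 at 0 min, against 8.63 and 8.58 in control, and at 8.62 and 8.76 in si-miR-671 at 60 min, against 8.38 and 8.55 in control. Its si-miR-671 arrays were below control at 0 min and above it at 60 min. The difference from control was -0.25 ± 0.063 over 0 and 30 min (adjusted p = 0.045) and 0.15 ± 0.063 over 60 and 120 min (adjusted p = 0.13).

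Whether the course of EGF differed between transfections was tested for each gene by a joint test of 3 terms. For si-miR-20a against control it called 0 of 29 genes (limma, smallest adjusted p = 0.58, for PMAIP1, 1 gene at an unadjusted p under 0.05), against 0.0154% of all probe sets. For si-miR-671 against control it called 0 (smallest adjusted p = 0.22, for XPC, 8 genes at an unadjusted p under 0.05), against 0.0514%. With 2 arrays a group, such a test leaves wide errors, so a missed threshold does not show that the courses were alike.

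Set directly against si-miR-671, si-miR-20a had 1 gene higher and 3 lower, against 2.38% and 2.16% of all probe sets. CCNG1 was lower in si-miR-20a by -0.38 ± 0.050 (adjusted p = 0.00059), GDF15 by -0.40 ± 0.077 (adjusted p = 0.0085) and SESN1 by -0.30 ± 0.064 (adjusted p = 0.015), the SESN1 call being lost when the arrays of these transfections alone were fitted and over 60 and 120 min alone. TIGAR was higher by 0.21 ± 0.051 (adjusted p = 0.033, lost in 13 of 24 fits without 1 array). The TIGAR call was lost too when all 33297 probe sets were fitted, and over 0 and 30 min alone. At 0 min CCNG1 stood at 10.20 and 9.96 in si-miR-20a against 10.60 and 10.65 in si-miR-671, and at 60 min at 10.29 and 10.14 in si-miR-20a against 10.20 and 10.12 in si-miR-671. The arrays of the 2 transfections stood apart at 0 min and overlapped at 60 min. Over 60 and 120 min alone, 0 genes were called, against 219 of all 19460 probe sets. With so few probe sets called, this 0 does not show that the p53 genes came together at the later times.

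Other genes of the pathway were taken from 2 lists. Of 23 measured among 25 other reported p53 targets, 2 were higher and 0 lower at 30 min (0.725% and 0.0411% of all probe sets), 3 and 0 at 60 min (2.16% and 0.493%), and 4 and 8 at 120 min (7.13% and 6.27%). CDKN1A, which encodes the cyclin-dependent kinase inhibitor p21, was higher at 30, 60 and 120 min by 0.24, 0.38 and 0.45 (± 0.050). RAP2B, a small GTPase, was higher by 0.40, 0.64 and 0.55 (± 0.053). IER5, an early response gene, was higher at 60 and 120 min by 0.40 and 0.69 (± 0.059), and SESN2, a relative of SESN1, was lower at 120 min by -0.59 ± 0.130.

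In si-miR-20a, 4 of the 23 were higher and 10 lower (11.9% and 12.7% of all probe sets), and in si-miR-671 1 was higher and 9 lower (6.79% and 7.70%). In si-miR-20a against si-miR-671, 4 were higher and 1 lower (2.38% and 2.16%). CDKN1A stood at 10.32 to 10.68 in si-miR-20a and 9.66 to 10.31 in si-miR-671, against 9.70 to 10.35 in control. The si-miR-20a arrays overlapped control at their low end, and the si-miR-671 arrays covered nearly the same range as control. CDKN1A was higher in si-miR-20a by 0.47 ± 0.044 (adjusted p = 2.2e-06) and differed by 0.00 ± 0.044 in si-miR-671 (adjusted p = 0.98). ACER2, a ceramidase gene, was higher in si-miR-20a by 0.63 ± 0.052 against control and by 0.78 ± 0.052 against si-miR-671, while in si-miR-671 it differed from control by -0.15 ± 0.052, not called. NINJ1, which encodes a protein that ruptures the membrane of dying cells, was lower by -0.54 ± 0.070 in si-miR-20a and -0.30 ± 0.070 in si-miR-671. SUSD6 was lower by -0.48 ± 0.057 in si-miR-20a and -0.60 ± 0.057 in si-miR-671. DRAM1, a lysosomal autophagy gene, was lower by -0.46 ± 0.034 in si-miR-20a and -0.56 ± 0.034 in si-miR-671. TRIM22, an antiviral ubiquitin ligase gene, was lower by -0.16 ± 0.051 in si-miR-20a and -0.41 ± 0.051 in si-miR-671. SESN2 was lower in si-miR-671 by -0.39 ± 0.112 and differed by -0.25 ± 0.112 in si-miR-20a, which was not called. TRIM22 and the decoy TRAIL receptor gene TNFRSF10D were higher in si-miR-20a than in si-miR-671 by 0.25 ± 0.051 and 0.24 ± 0.056.

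Of 19 measured among 22 regulators and cofactors of p53, 0 were higher and 1 lower at 30 min, 1 and 0 at 60 min, and 2 and 4 at 120 min. The shares of all probe sets higher and lower were 0.725% and 0.0411% at 30 min, 2.16% and 0.493% at 60 min, and 7.13% and 6.27% at 120 min. CHEK2, a checkpoint kinase, was lower at 30 and 120 min by -0.23 and -0.27 (± 0.046). TP53BP2, a cofactor that steers p53 to apoptotic genes, was higher at 60 and 120 min by 0.29 and 0.37 (± 0.058). TP73, a relative of p53, was lower at 120 min by -0.64 ± 0.074. DAXX, a histone chaperone, was higher at 120 min by 0.23 ± 0.069 on the brightest of its 3 probe sets, the one used here.

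In si-miR-20a 3 of the 19 regulators were higher and 8 lower (11.9% and 12.7% of all probe sets), and in si-miR-671 3 were higher and 2 lower (6.79% and 7.70%). In si-miR-20a against si-miR-671, 0 were higher and 2 lower (2.38% and 2.16%). SIRT1, a deacetylase of p53, was lower by -0.37 ± 0.049 in si-miR-20a and -0.18 ± 0.049 in si-miR-671, and lower in si-miR-20a than in si-miR-671 by -0.19 ± 0.049. PRKDC, the catalytic subunit of DNA-dependent protein kinase, was higher by 0.31 ± 0.046 in si-miR-20a and 0.25 ± 0.046 in si-miR-671. HIPK2, a kinase of p53, was lower by -0.31 ± 0.046 in si-miR-20a and -0.18 ± 0.046 in si-miR-671. TP73 was lower in si-miR-20a by -0.29 ± 0.064 against control and by -0.28 ± 0.064 against si-miR-671. BRCA1, of homologous recombination, was higher by 0.23 ± 0.055 in si-miR-20a and 0.41 ± 0.055 in si-miR-671. CHEK2 was higher in si-miR-671 by 0.23 ± 0.040 and differed by 0.09 ± 0.040 in si-miR-20a, not called. MDM4, the partner of MDM2 in restraining p53, was not called in any of these comparisons, at 0.01, 0.17 and 0.07 at 30, 60 and 120 min, -0.06 in si-miR-20a and 0.08 in si-miR-671.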

How the data were processed

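MCF10A RNA from 24 samples in 12 groups was measured on 1-colour arrays. The authors deposited log2 values, 1 per probe set; Affymetrix Expression Console is named, without a version, per the submitters' processing notes. How probes were summarised, corrected and normalized is not given in the sources used here, and the log base was read from the values (array maxima 13.0 to 13.2). The 33297 probe sets had 0 missing values and were used without further normalization. GEO's platform annotation gave 19460 of them exactly 1 symbol; 1754 with several and 12083 not listed were left out. Gene IDs matched a RefSeq table for 19429 and changed 0 symbols.

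Groups came from the labels. A limma fit of 12 group means (12 residual degrees of freedom, prior standard deviation 0.136 with 2.57 degrees of freedom) gave each contrast, with Benjamini-Hochberg adjustment over 19460 probe sets and a threshold of 0.05. Comparisons within 1 group of 2 arrays rest on the spread pooled over groups. No background signal or count is in these files, so the number of arrays limits precision. Fits were tested on simulated data. Every measured gene of the p53 set was described under its role; of the other lists, MDM4 and CDKN1A were always named, and otherwise up to 4 called genes per comparison by size. The p53 genes and all lists were chosen with earlier results of these data known. Alternatives were a replicate block, re-normalization, other probe-set filters, variance priors, array weights, subsets of arrays and leaving out each array. Tools were R 4.3.3, limma 3.58.1, Python 3.11.15, numpy 2.4.6, pandas 2.3.3 and matplotlib 3.10.9.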

Additional observations from a re-analysis of the deposited data

How the results depend on the processing

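Over the 29 genes, 5637 values under an alternative kept their side of the threshold, 130 lost a call and 61 gained one. Direction was compared only for values called in the main or the alternative fit. Of these 1 reversed: PMAIP1 in si-miR-20a over 0 and 30 min alone, at -0.096. A value called in neither fit could change sign and still be counted among the 5637. Over 0 and 30 min alone, 9 genes were called in si-miR-20a against control and 3 in si-miR-671 against control (SPATA18 and TNFRSF10B, called over all times too, and XPC, which was not), where 18 and 12 were called over all times. For si-miR-20a against si-miR-671, 4 genes were called, but 8 after leaving out probe sets with a mean under 6, 0 over 60 and 120 min alone, and 3 to 8 when 1 array was left out (8 without si-miR-20a 120 min replicate 1). Array weights called 1 gene, XPC, in the joint test of the si-miR-671 course, where 0 were called otherwise. Leaving out each array gave 4 to 5 calls at 30 min, 9 to 11 at 60 min, 14 to 16 at 120 min, 16 to 19 in si-miR-20a and 9 to 13 in si-miR-671. The causes were not tested. Samples of the same replicate number were not paired in the main fit. Over 66 pairs of groups the correlation of deviations ran from -0.573 to 0.55 (median 0.0629), with 30 above 0.1. These values do not settle whether replicates of the same number were handled together. With a replicate block the counts were 5, 10 and 14 at 30, 60 and 120 min, 18 in si-miR-20a, 11 in si-miR-671, 4 between them and 0 in both joint tests; PLK2 in si-miR-671 was the call lost. Over all probe sets, the calls at 120 min were 1390 with the compared arrays alone against 2607, those of si-miR-20a 2328 over 0 and 30 min against 4771, those of si-miR-671 546 against 2820, and those at 30 min 95 without si-miR-671 arrays against 149. Between si-miR-20a and si-miR-671 they were 370 with the compared arrays alone, 1461 over 0 and 30 min and 219 over 60 and 120 min, against 884. The joint tests called 3 probe sets for si-miR-20a (0 to 15 over alternatives) and 10 for si-miR-671 (3 to 92).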
